A study of Homo sapiens with 5 samples.

Results

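The genes examined here mark the epithelial or the mesenchymal state of a cell, and comprise 10 of the 30476 genes of the deposited count table. Each was taken as the 1 row whose Ensembl identifier carries its symbol, and all 10 were found. CDH1, EPCAM and ESRP1 mark the epithelial side, CDH2 and VIM the mesenchymal side, and ZEB1, ZEB2, SNAI1, SNAI2 and TWIST1 encode transcription factors that act between them. They were measured by RNA-seq of total RNA in TOV21G, a long-established line of ovarian clear cell carcinoma in which ARID1A is mutated, a subunit of the SWI/SNF chromatin remodeling complex. Parental TOV21G cells without GSK126 gave 1 library. Cells resistant to GSK126, an inhibitor of the histone methyltransferase EZH2, gave 4 libraries. These EZH2 inhibitor-resistant (EIR) cells were 2 picked clones, clone 3 and clone 4, selected with GSK126 that was raised from 5 uM to 20 uM, and each clone was sequenced once untreated and once treated with GSK126. All 5 libraries therefore share the ARID1A mutation, and a difference of EIR cells from parental cells rests on 2 clones and on 1 parental library. The dose and time of GSK126 in the sequenced cultures are not given in the sources used here.

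In epithelial cells, E-cadherin (CDH1) holds neighboring cells together at adherens junctions and EPCAM sits at the lateral membrane. In epithelial-mesenchymal transition, transcription factors of the SNAIL, ZEB and TWIST families repress such genes, N-cadherin (CDH2) takes the place of E-cadherin, and the intermediate filament vimentin (VIM) is abundant. Micro-RNAs of the miR-200 family repress ZEB1 and ZEB2, which in turn repress the miR-200 genes, and ESRP1 and ESRP2 direct epithelial splicing. Carcinoma cells often hold a mixture of both programs, and ovarian carcinoma cells can express CDH1 and CDH2 together.

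The miR-200 family is shown because its members sort into 2 groups by seed, the stretch that pairs with a target, and because ZEB1 and ZEB2 hold many matches to both. The mature sequences, from RefSeq (GRCh38.p14), have the seed (bases 2 to 8) in capitals.
hsa-miR-200b-3p: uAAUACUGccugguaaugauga
hsa-miR-200c-3p: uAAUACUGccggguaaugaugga
hsa-miR-429: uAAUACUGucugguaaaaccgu
hsa-miR-200a-3p: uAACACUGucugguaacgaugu
hsa-miR-141-3p: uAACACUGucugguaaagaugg
The first 3 share the seed AAUACUG and the other two share AACACUG. The reverse complement of the first seed, CAGTATT, occurred 6 times in the canonical transcript of ZEB1 and 6 times in that of ZEB2, counting the strand of the transcript only. The reverse complement of the second, CAGTGTT, occurred 7 times in each. Of 19894 canonical coding transcripts in GENCODE, 22.9% held CAGTATT and 27.5% held CAGTGTT at least once, while 9 transcripts (0.0452%) held at least 6 of the former and 11 (0.0553%) at least 7 of the latter, long transcripts having more room for either. The other 8 genes held 0 to 2 copies of each. Mature micro-RNAs were not measured in these libraries. The host transcript of miR-200c and miR-141, MIR200CHG, had 1 count in parental cells and 0 in every EIR library, as did MIR205HG.

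Total estimated counts were 25479238 to 30764963 per library. PAX8, a lineage factor of the Müllerian tract, held 3031 to 4491 counts per library, whereas the clear cell markers KRT7 (81 to 199 counts), NAPSA (2 to 53) and MUC16 (5 to 43) were low. Markers of cells that a line should lack were near the floor, with 23 to 40 counts summed over 4 leukocyte genes and 9 to 20 over 4 endothelial genes. Gene-wise changes from parental cells ran with the GC content of transcripts, with a rank correlation across 11377 genes (which are not replicates) of -0.42 in clone 3 and -0.45 in clone 4. Losses of a reported call after a correction for this trend are therefore stated. Calls gained after it were not followed, apart from PKP3 and CRB3 below.

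The first question was which of these genes differed in resistant cells from parental cells. In short, N-cadherin was switched on in both clones, vimentin was lower in both, E-cadherin was raised in clone 3, and EPCAM was lost in clone 4. With all 4 EIR libraries against the parental library, CDH2 was higher and VIM lower. These were 2 of the 7 genes that received an adjusted p (DESeq2, Benjamini-Hochberg adjustment over all genes), against 25.5% of all genes tested. The other 5 (CDH1, EPCAM, ZEB1, ZEB2 and TWIST1) had DESeq2 adjusted p-values of 0.251 to 0.903. Tested as separate clones, 3 of 7 were called in clone 3 (29.2% of all genes) and 5 of 7 in clone 4 (32.9% of all genes). ESRP1, SNAI1 and SNAI2 had too few counts to receive an adjusted p in any of these comparisons. The 3 comparisons share the single parental library, and in the tests by clone the untreated and the treated library of a clone stood as its replicates.

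**Figure D1:**
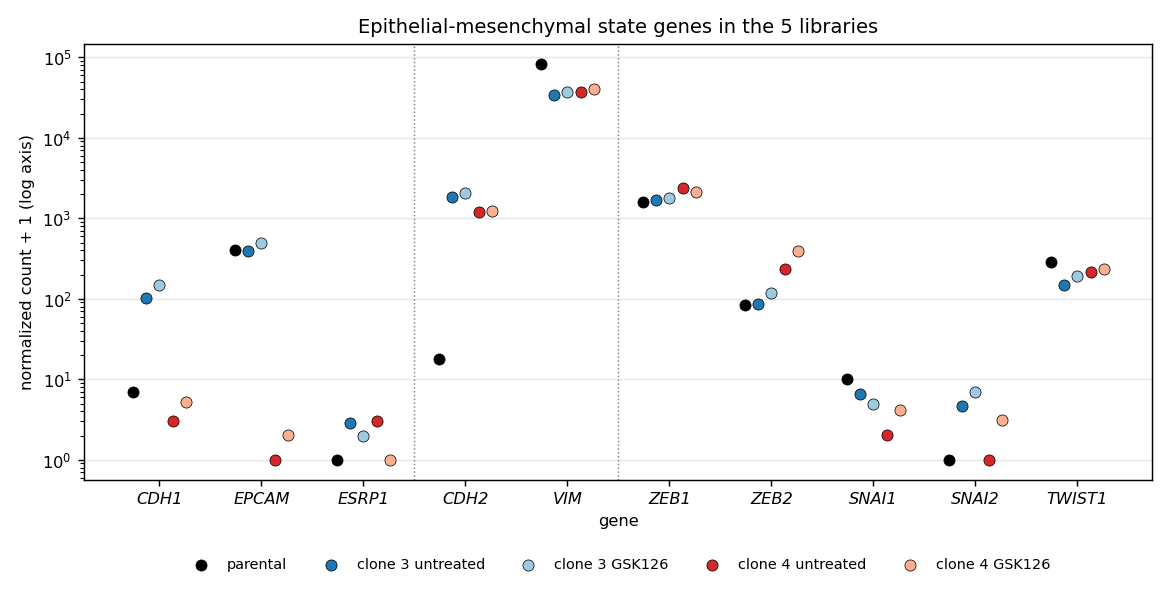
Normalized read count plus 1 (log axis) of each of the 10 genes in the 5 libraries, 1 point per library. Dotted lines separate epithelial markers, mesenchymal markers and transcription factors. CDH2 rises from 17.1 in parental cells to at least 1181 in every EIR library, while EPCAM is at 0 and 1.06 in clone 4 only.

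CDH1 (ENSG00000039068, GRCh37 chromosome 16, 68771195 to 68869440, plus strand) reached a normalized read count of 6.04 in the parental library, 99.99 in untreated and 146 in GSK126-treated clone 3, and 2.03 in untreated and 4.23 in GSK126-treated clone 4. The clone 3 libraries were the high ones, and neither overlapped with any other library. These levels rest on 6 counts in parental cells, 256 in clone 3 and 6 in clone 4, so that the ratio of clone 3 to parental cells was 20.2 with a 95% interval from counting error alone of 9.18 to 55.7. Counting intervals here and below do not cover the spread between cultures. The log2 fold change was 4.35 (SE 0.91, DESeq2 adjusted p 1.96e-05) in clone 3, and the adjusted p was 0.0510 without the treated clone 3 library. In clone 4 it was -0.95 (95% interval -3.07 to 1.16, DESeq2 adjusted p 0.547). In bulk libraries, fewer cells that express a gene and less RNA per cell cannot be told apart.

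EPCAM (ENSG00000119888, chromosome 2, 47572297 to 47614740, plus strand), an adhesion molecule of epithelial and carcinoma cells, had 401 normalized counts in parental cells, 394 and 492 in untreated and treated clone 3, 0 in untreated clone 4 and 1.06 in treated clone 4. Clone 3 thus bracketed the parental value, and the clone 4 libraries lay far below all others. A single read was assigned to EPCAM in clone 4, which gave a ratio of parental cells to clone 4 of 773 with a 95% counting interval of 138 to 30606. The log2 fold change of clone 4 was -9.59 (SE 1.48, DESeq2 adjusted p 2.03e-09). In clone 3 it was 0.14 (95% interval -0.55 to 0.84, DESeq2 adjusted p 0.832), an interval that does not reach a doubling. With both clones together EPCAM was not called (log2 fold change -0.85, DESeq2 adjusted p 0.903).

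ESRP1 (ENSG00000104413, chromosome 8, 95653302 to 95719694, plus strand), the epithelial splicing regulator, had raw counts of 0 in parental cells, 2 and 1 in clone 3, and 2 and 0 in clone 4. At 0 to 2 counts per library no difference was detectable at this depth. Its paralog ESRP2, was expressed in parental cells. It held 274 counts in parental cells, 6 and 1 in clone 3, and 4 and 3 in clone 4, and the ratio of parental cells was 82.5 (95% counting interval 39.5 to 207) to clone 3 and 76.0 (36.4 to 191) to clone 4. ESRP2 fell in both clones (log2 fold change -6.38, DESeq2 adjusted p 1.59e-11, and -6.25, DESeq2 adjusted p 3.46e-11).

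CDH2 (ENSG00000170558, chromosome 18, 25512843 to 25757910, minus strand) stood at 17.1 normalized counts in parental cells, 1835 and 2065 in untreated and treated clone 3, and 1181 and 1242 in untreated and treated clone 4. All 4 EIR libraries lay above the parental library, and both clone 3 libraries above both clone 4 libraries. The level was 114-fold that of parental cells in clone 3 (95% counting interval 70.9 to 195) and 70.7-fold in clone 4 (44.1 to 122). The log2 fold change was 6.83 (SE 0.40, DESeq2 adjusted p 1.82e-61) in clone 3, 6.14 (SE 0.40, DESeq2 adjusted p 1.19e-49) in clone 4 and 6.53 (SE 0.52, DESeq2 adjusted p 2.04e-33) over all EIR libraries, and the rise was called under each of the 11 alternatives of the pooled comparison.

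VIM (ENSG00000026025, chromosome 10, 17270240 to 17279592, plus strand) moved the other way from CDH2, although both mark mesenchymal cells. Parental cells had 83092 normalized counts, untreated and treated clone 3 had 33551 and 37558, and untreated and treated clone 4 had 37552 and 40141. The parental library was the highest, and the EIR libraries of both clones overlapped. Over the 4 EIR libraries the mean was 37201 ± 2722 (SD, n = 4 libraries from 2 clones), and the log2 fold change was -1.16 (SE 0.17, DESeq2 adjusted p 6.83e-10). It was -1.22 in clone 3 and -1.10 in clone 4 (DESeq2 adjusted p 2.90e-13 and 8.63e-11). VIM was nevertheless the most abundant of the 10 genes per transcript length in every library. Antisense transcripts overlap VIM, of which VIM-AS1 held 57 to 82 counts and ENSG00000234961 44 to 129, small beside VIM itself.

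Among the transcription factors, ZEB1 and ZEB2 are zinc finger repressors of CDH1. ZEB1 (ENSG00000148516, chromosome 10, 31607424 to 31818742, plus strand) stood at 1587 normalized counts in parental cells, 1704 and 1792 in clone 3, and 2356 and 2116 in clone 4, so that every EIR library was above the parental one. The log2 fold change was 0.49 (SE 0.19, DESeq2 adjusted p 0.0306) in clone 4. This call was lost after GC correction (adjusted p 0.0858), without the untreated clone 4 library (0.128) and with the parental and clone 4 libraries alone (0.195). In clone 3 it was 0.14 (95% interval -0.23 to 0.51, DESeq2 adjusted p 0.665). The antisense transcript ZEB1-AS1 held 206 counts in the parental library against 65 to 111 in those of EIR cells, and no source used here says if reads were counted by strand.

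ZEB2 (ENSG00000169554, chromosome 2, 145121931 to 145278624, minus strand) stood at 83.6 normalized counts in parental cells, 85.2 and 118 in untreated and treated clone 3, and 232 and 388 in untreated and treated clone 4. Clone 4 stood above clone 3 and parental cells, and the untreated clone 3 library lay next to the parental one. ZEB2 rose in clone 4 by a log2 fold change that came to 1.89 (SE 0.46, DESeq2 adjusted p 0.000291), which did not pass without the treated clone 4 library (adjusted p 0.0670). In clone 3 the log2 fold change was 0.28 (95% interval -0.64 to 1.19, DESeq2 adjusted p 0.739).

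TWIST1 (ENSG00000122691, chromosome 7, 19060614 to 19157259, minus strand), a basic helix-loop-helix factor, had 282 normalized counts in parental cells, 146 and 192 in clone 3, and 214 and 236 in clone 4. Parental cells had the highest value, followed by clone 4 and then clone 3, without overlap between the clones. None of the DESeq2 tests against parental cells called it. The log2 fold change in clone 3 was -0.74 (95% interval -1.47 to -0.0046, DESeq2 adjusted p 0.131), and edgeR, which called 19.3% of all genes in that comparison, called it there (adjusted p 0.0418). In clone 4 it was -0.33 (DESeq2 adjusted p 0.552), and the sign turned after GC correction (0.05).

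The zinc finger factors SNAI1 and SNAI2, which act early in many transitions, were barely detected. SNAI1 (ENSG00000124216, chromosome 20, 48599517 to 48605423, plus strand) stood at 9 counts in parental cells, 6 and 4 in clone 3, and 1 and 3 in clone 4. SNAI2 (ENSG00000019549, chromosome 8, 49830157 to 49834299, minus strand) stood at 0 counts in parental cells, 4 and 6 in clone 3, and 0 and 2 in clone 4. At these counts no difference was detectable for either gene.

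**Figure D2:**
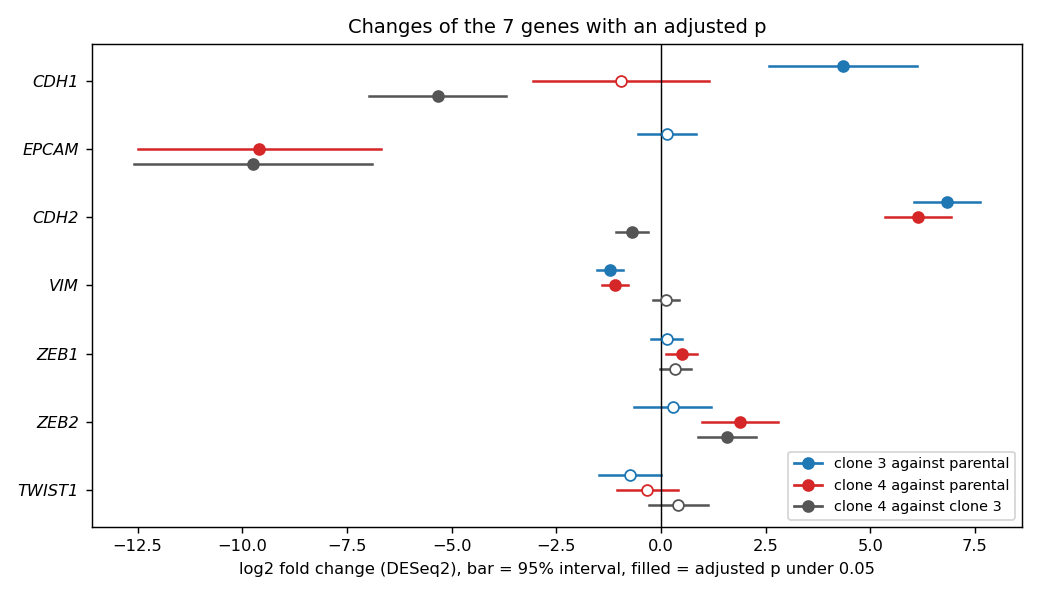
Log2 fold change (DESeq2) with its 95% interval for the 7 genes that received an adjusted p, for each clone against parental cells and for clone 4 against clone 3. Filled points have an adjusted p under 0.05. CDH2 lies at 6.83 and 6.14 in the clones, VIM at -1.22 and -1.10, and EPCAM at 0.14 and -9.59.

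The second question was whether the 2 EIR clones had reached the same state, tested among the 4 EIR libraries with treatment as covariate. Clone 4 had less CDH1, EPCAM and CDH2 and more ZEB2 than clone 3, 4 of the 7 genes with an adjusted p, against 9.83% of all genes tested. The log2 difference was -9.74 for EPCAM (SE 1.45, DESeq2 adjusted p 1.12e-09) and -5.33 for CDH1 (SE 0.83, DESeq2 adjusted p 7.80e-09). Clone 3 held 39.3 times the CDH1 of clone 4 (95% counting interval 17.8 to 108) and 852 times the EPCAM (152 to 33675). For ZEB2 the log2 difference was 1.58 (SE 0.36, DESeq2 adjusted p 0.000224), and the adjusted p was 0.0682 without the untreated clone 3 library. For CDH2 it was -0.69 (SE 0.19, DESeq2 adjusted p 0.00452), with an adjusted p of 0.0535 or 0.213 when the untreated or the treated clone 3 library was left out. The remaining genes with a test were not called, with log2 differences and 95% intervals of 0.12 (-0.18 to 0.42) for VIM, 0.35 (-0.02 to 0.71) for ZEB1 and 0.42 (-0.28 to 1.11) for TWIST1.

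The order of the genes was compared per length, as normalized counts per kb of the median annotated transcript. In parental cells VIM came first at 79097 per kb, followed by ZEB1 (1148), TWIST1 (479), EPCAM (356) and ZEB2 (31.4), with CDH1 (6.24) and CDH2 (5.45) near each other. On this length CDH2 came next after VIM and ZEB1 in clone 3, at 584 and 657 per kb untreated and treated, ahead of EPCAM (350 and 437) and TWIST1 (248 and 326). In clone 4 CDH2 (376 and 395 per kb) and TWIST1 (363 and 401) overlapped below VIM and ZEB1, ZEB2 followed at 87.1 and 146, and CDH1 and EPCAM were at most 4.37. The ratio of CDH2 to CDH1 on this scale was 0.874 in parental cells, 5.66 and 4.35 in untreated and treated clone 3, and 179 and 90.5 in untreated and treated clone 4. The clone 4 ratios rest on 2 and 4 counts of CDH1. The choice of length moves the ratio in all libraries by the same factor, as with the union of exons it was 2.01 in parental cells, and with the canonical transcript it was 3.39 (a choice made after the data were seen). The order of the genes, however, depended on the length used. In parental cells EPCAM stood above TWIST1 per kb of exon union (165 and 141) and of canonical transcript (259 and 173). CDH2 in clone 3 stood above ZEB1 per kb of exon union (214 and 241 against 197 and 207) and of canonical transcript (457 and 514 against 287 and 302). In clone 4 CDH2 stood above TWIST1 per kb of exon union (138 and 145 against 107 and 118) and of canonical transcript (294 and 309 against 131 and 145). VIM came first in every library with all 3 lengths.

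The third question was whether these genes differed between GSK126-treated and untreated resistant cells. None of the 10 genes was called in treated against untreated EIR cells, where 0.00335% of all genes tested (1 of 29847) passed, by DESeq2. None had an unadjusted p under 0.05, and edgeR called none of them nor of all genes (0%). The log2 difference was 0.12 (95% interval -0.61 to 0.85) for CDH2, 0.12 (-0.25 to 0.48) for VIM, -0.07 (-0.59 to 0.46) for ZEB1, 0.24 (-0.53 to 1.01) for TWIST1 and 0.66 (-0.75 to 2.07) for ZEB2, each with a DESeq2 adjusted p of 0.9999. ZEB2 was higher in the treated library of both clones, as were CDH1, CDH2, VIM, TWIST1 and EPCAM, while ZEB1 was higher in clone 3 and lower in clone 4. In clone 4 this rests on 0 untreated and 1 treated count for EPCAM, and on 2 and 4 for CDH1. For CDH1 and EPCAM, which differ between the clones, the interval was wide without the clone in the fit (-4.27 to 5.36 for CDH1). With the clone as replicate block, which called 0.0134% of all genes, none of the 10 was called either, and the log2 difference was 0.66 (95% interval -0.75 to 2.07) for CDH1 and 0.39 (-0.63 to 1.404) for EPCAM. Under the block the interval still included a doubling for both.

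Genes of the same programs were then followed, in lists chosen with earlier results of these data known. Of 28 epithelial junction and surface genes 27 were in the table and 24 received an adjusted p against parental cells. In clone 3, 3 rose (CLDN1, AP1M2 and CXADR) and 9 fell, with a median log2 fold change of 0.15 against -0.01 over all genes tested, of which 14.7% rose and 14.5% fell. After GC correction 2 of these 9 were not called, SPINT2 among them (adjusted p 0.0707). PKP3 and CRB3, not called in clone 3 without the correction, were called higher with it (DESeq2 adjusted p 0.0253 and 0.0237). In clone 4, 3 rose (TJP1, AP1M2 and CXADR) and 17 fell, with a median of -1.47 against -0.02 over all genes, of which 14.7% rose and 18.3% fell. CLDN3 and LSR, 2 of these 17, were not called after GC correction (adjusted p 0.202 and 0.115). Between the clones, 0 of 22 tested were higher and 11 were lower in clone 4, against 3.31% and 6.52% of all genes. They included CLDN1, OCLN, TJP3, F11R, PKP3, DSP, MAL2, MUC1, CDS1 and LSR, mostly parts of tight junctions and desmosomes.

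DSP, the desmosomal plaque protein desmoplakin, had 6152 normalized counts in parental cells, 5471 and 7423 in clone 3, and 54.9 and 26.4 in clone 4. Like EPCAM it was at the parental level in clone 3 and nearly absent from clone 4 (log2 difference between clones -7.38, DESeq2 adjusted p 5.04e-24). OCLN, a tight junction protein, had 1120 normalized counts in parental cells, 1540 and 1722 in clone 3, and 91.6 and 174 in clone 4 (log2 difference -3.68, DESeq2 adjusted p 2.23e-44). MAL2, a protein of apical transport, fell in clone 4 against parental cells with a log2 fold change of -4.32 (DESeq2 adjusted p 7.52e-74). MARVELD2, the tricellular junction protein tricellulin, fell in both clones, with log2 fold changes of -2.35 and -3.98 (DESeq2 adjusted p 5.29e-06 and 3.49e-14). LLGL2, a polarity protein, also fell in clone 3 (log2 fold change -1.31, DESeq2 adjusted p 4.07e-05) and in clone 4 (-1.83, DESeq2 adjusted p 3.97e-09). Against this direction AP1M2, a subunit of an epithelial clathrin adaptor, rose in clone 3 (log2 fold change 1.17, DESeq2 adjusted p 0.000376), a call lost without the untreated or the treated clone 3 library (adjusted p 0.0511 and 0.0717).

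**Figure D3:**
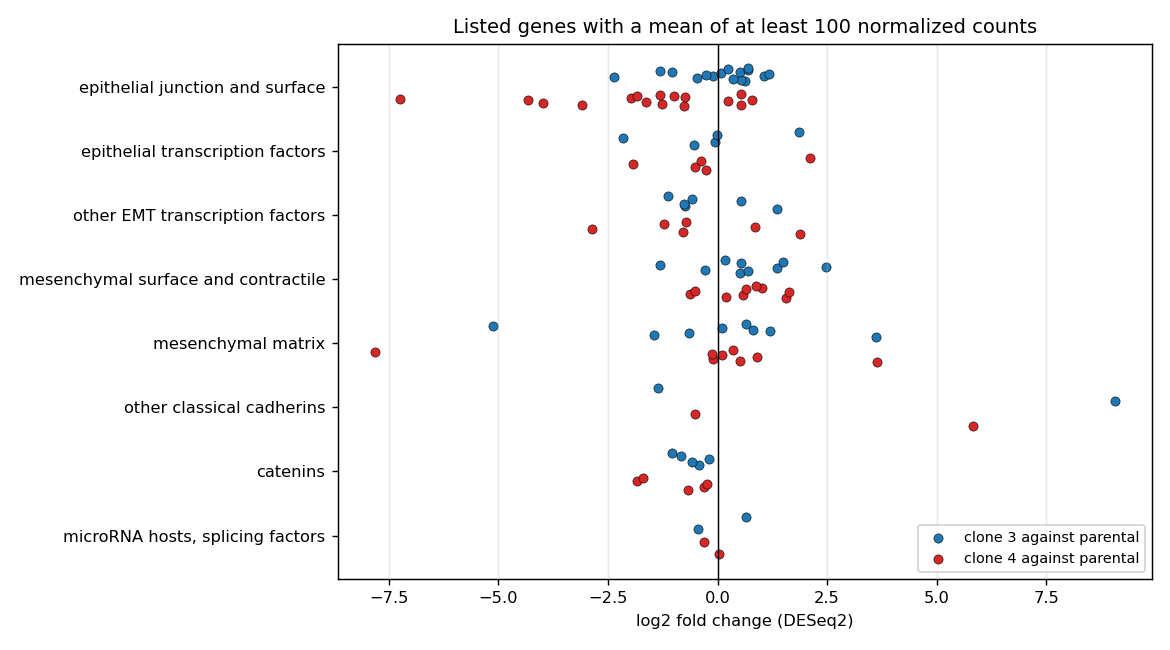
Log2 fold change (DESeq2) of listed genes averaging 100 or more normalized counts, for clone 3 (blue) and clone 4 (red) against the same parental library. Of the 16 epithelial junction and surface genes, 10 are above 0 in clone 3 and 4 in clone 4. The far right points are CDH6, at 9.08 in clone 3 and 5.82 in clone 4.

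Promoter windows from RefSeq (250 bases before to 50 after a gene's start, GRCh38.p14) were read for the sequence that SNAIL and ZEB factors bind, CAGGTG, which is CACCTG on the other strand. Of 35116 windows, 20.6% held it. The table held windows for 4 of the 10 genes, namely CDH2, VIM, ZEB1 and ZEB2, and 2 of their 11 windows held the motif, both of ZEB1. A window of CDH2 is shown because the gene had the largest rise among the 10, and windows of DSP and OCLN because these genes fell with EPCAM in clone 4. The motif is in capitals.
CDH2, chr18:28177081-28177380, minus strand: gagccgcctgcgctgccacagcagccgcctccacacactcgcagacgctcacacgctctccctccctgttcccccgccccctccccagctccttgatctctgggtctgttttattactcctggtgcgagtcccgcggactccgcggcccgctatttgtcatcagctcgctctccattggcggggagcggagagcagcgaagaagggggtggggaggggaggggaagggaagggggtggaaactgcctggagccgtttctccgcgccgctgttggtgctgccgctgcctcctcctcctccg
DSP, chr6:7541421-7541720, plus strand: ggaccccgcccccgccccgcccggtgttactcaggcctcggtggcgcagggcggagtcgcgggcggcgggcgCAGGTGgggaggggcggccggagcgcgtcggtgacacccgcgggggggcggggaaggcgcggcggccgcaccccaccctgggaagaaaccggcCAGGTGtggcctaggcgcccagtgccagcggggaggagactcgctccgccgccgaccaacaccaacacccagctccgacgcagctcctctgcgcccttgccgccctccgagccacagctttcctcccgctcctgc
OCLN, chr5:69492540-69492839, plus strand: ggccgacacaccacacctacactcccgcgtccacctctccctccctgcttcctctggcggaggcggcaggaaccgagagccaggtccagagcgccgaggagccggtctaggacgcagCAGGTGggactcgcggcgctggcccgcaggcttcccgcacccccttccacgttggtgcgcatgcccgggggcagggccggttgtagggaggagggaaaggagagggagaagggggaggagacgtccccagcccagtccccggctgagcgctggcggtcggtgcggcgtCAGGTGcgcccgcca
The CDH2 window shown held 0 copies, and those of DSP and OCLN 2 each. Windows were chosen for display after their matches were seen. Another CDH2 window (chr18:28036592-28036891) held 0 copies. Another OCLN window (chr5:69492297-69492596) held 1 copy, and that of MARVELD2, which also fell in clone 4, held 0, so no pattern is read from these counts. A match is a description of these letters only, and binding was not measured here.

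Other cadherins and the catenins, which link cadherins to actin, were examined next. Of 16 further classical cadherins 12 were in the table and 6 received an adjusted p against parental cells, where CDH6 rose in both clones and CDH24 fell in clone 3, with a median of 0.02 in clone 3 and 0.41 in clone 4. Over all genes these medians were -0.01 and -0.02, and 14.7% rose in each clone, with 14.5% lower in clone 3. CDH6, the kidney cadherin, had 2.01 normalized counts in parental cells, 980 and 1193 in clone 3, and 80.4 and 148 in clone 4. As for CDH2, every EIR library was above parental cells and clone 3 above clone 4, with a ratio to parental cells of 538 (95% counting interval 149 to 4443) in clone 3 and 56.4 (15.4 to 468) in clone 4. The log2 difference of clone 4 from clone 3 was -3.30 (DESeq2 adjusted p 3.60e-32). The fall of CDH24 (log2 fold change -1.36, DESeq2 adjusted p 0.00230) was lost after GC correction (adjusted p 0.0600) and without the untreated or the treated clone 3 library (0.0578 and 0.126). Of 8 catenins 6 were tested, with a median log2 fold change of -0.71 in clone 3 and -1.18 in clone 4, and 0 rose while 4 fell in each clone (CTNNA1, JUP and ARVCF in both, CTNNB1 in clone 3 and CTNND2 in clone 4), against 14.5% of all genes lower in clone 3 and 18.3% in clone 4. JUP, plakoglobin, fell in clone 4 (log2 fold change -1.84, DESeq2 adjusted p 5.34e-13), as did ARVCF (-1.69, DESeq2 adjusted p 2.03e-08) and CTNNA1 (-0.67, DESeq2 adjusted p 0.000288). In clone 3 the falls of JUP (-0.83) and ARVCF (-1.03) were lost after GC correction (adjusted p 0.200 and 0.108). They were also lost without the treated clone 3 library (0.211 and 0.0694), and that of ARVCF without the untreated one (0.110). CTNNB1, beta-catenin, fell in clone 3 (-0.58, DESeq2 adjusted p 0.00109), which was lost without the untreated or the treated clone 3 library (0.139 and 0.111). CTNND1, p120-catenin, was not called in either clone.

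Of 15 mesenchymal surface and contractile genes, 5 rose and 1 fell in clone 3 (12 tested) and 6 rose and 1 fell in clone 4 (11 tested). The medians were 0.80 and 0.65 against -0.01 and -0.02 over all genes. Of all genes tested, 14.7% rose in each clone, and 14.5% fell in clone 3 and 18.3% in clone 4. The 5 that rose in clone 3 were AXL, S100A4, TAGLN, CALD1 and TPM1 while ACTA2 fell, and S100A4 fell in clone 4, though not after GC correction (adjusted p 0.0841). TPM1, a tropomyosin, rose in clone 3 (log2 fold change 1.496, DESeq2 adjusted p 1.43e-17) and in clone 4 (1.01, DESeq2 adjusted p 2.55e-08), and so did TAGLN, an actin-binding protein (2.48, DESeq2 adjusted p 5.00e-05, and 1.62, DESeq2 adjusted p 0.0124). The TAGLN call in clone 4 held under 6 of 8 alternatives. It was lost without the untreated clone 4 library and with the parental and clone 4 libraries alone. The clones differed in others of this list. The receptor tyrosine kinase AXL was higher in clone 4 than in clone 3 (log2 difference 1.03, DESeq2 adjusted p 1.30e-08) and S100A4 was lower (-1.99, DESeq2 adjusted p 6.97e-27).

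Of 19 matrix genes 17 were tested against parental cells, of which 3 rose and 5 fell in clone 3 and 5 rose and 2 fell in clone 4, with medians of 0.64 and 0.11 (all genes, -0.01 and -0.02). Of all genes, 14.7% rose and 14.5% fell in clone 3, and 14.7% rose and 18.3% fell in clone 4. Those that rose were FN1, VCAN and TGFBI in clone 3, and they included FN1, VCAN, SPARC and POSTN in clone 4. MMP14 and COL1A2 fell in both clones, and SPARC, TNC and LOX fell in clone 3, TNC not after GC correction (adjusted p 0.144). FN1, fibronectin, rose from 10.1 normalized counts in parental cells to 83.3 and 164 in clone 3 and 146 and 106 in clone 4 (log2 fold change 3.62, DESeq2 adjusted p 5.90e-06, and 3.65, DESeq2 adjusted p 4.26e-06). MMP14, a membrane-bound collagenase, fell from 2569 to 71.3 and 77.1 in clone 3 and 15.3 and 7.41 in clone 4 (log2 fold change -5.11, DESeq2 adjusted p 7.30e-67, and -7.82, DESeq2 adjusted p 2.09e-79). These 2 changed in opposite directions with no overlap between parental and EIR libraries. VCAN, the proteoglycan versican, rose in clone 4 (0.90, DESeq2 adjusted p 8.66e-07), and SPARC, a collagen-binding protein, was 1.97 higher on the log2 scale in clone 4 than in clone 3 (DESeq2 adjusted p 4.32e-33).

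Of 13 further transcription factors linked to epithelial-mesenchymal transition 8 received an adjusted p, of which 2 rose and 3 fell in each clone, with medians of -0.02 in clone 3 and -0.88 in clone 4. The medians over all genes were -0.01 and -0.02, with 14.7% higher and 14.5% lower in clone 3 and 14.7% higher and 18.3% lower in clone 4. FOXC1 and PRRX1 rose and TCF3, HMGA2 and SOX9 fell in clone 3, and FOXC1 and KLF8 rose and TCF3 and HMGA2 were among those that fell in clone 4. The forkhead factor FOXC1 rose in both (log2 fold change 1.35, DESeq2 adjusted p 9.38e-06, and 1.88, DESeq2 adjusted p 1.29e-10). TCF3 fell in clone 3 (-0.74, DESeq2 adjusted p 0.000709), but not after GC correction (adjusted p 0.163) or without the untreated clone 3 library (0.140). In clone 4 it fell as well (-0.79, DESeq2 adjusted p 0.000235), again not after GC correction (adjusted p 0.236). The fall of HMGA2 in clone 3 and the rise of KLF8 in clone 4 were also lost after GC correction (adjusted p 0.163 and 0.0512), and SOX9 was not called after GC correction (0.0909) or without the untreated or the treated clone 3 library (0.128 and 0.308). HMGA2, a chromatin protein, fell in clone 4 (-1.23, DESeq2 adjusted p 1.29e-12). PRRX1, chosen after its values were seen, had 4 counts in parental cells, 159 and 278 in clone 3, and 0 and 1 in clone 4, which made it, like CDH1, high in clone 3 alone (DESeq2 adjusted p 2.27e-08 against parental cells and 5.19e-08 between clones).

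Of 10 transcription factors of epithelial cells 7 were tested, and 1 rose and 1 fell in clone 3 while 1 rose and 2 fell in clone 4, with medians of -0.05 and -0.38 against -0.01 and -0.02 over all genes. Of all genes, 14.7% rose in each clone, and 14.5% fell in clone 3 and 18.3% in clone 4. The pioneer factor FOXA1 rose in both clones (1.85, DESeq2 adjusted p 2.27e-05, and 2.11, DESeq2 adjusted p 8.43e-07) and KLF4 fell in both (-2.17, DESeq2 adjusted p 2.09e-05, and -1.92, DESeq2 adjusted p 0.000174). The fall of ELF3 in clone 4 (-0.52, DESeq2 adjusted p 0.0499) held under only 3 of 8 alternatives. GC correction (0.751), total count scaling and leaving out the treated clone 4 library were among those that lost it. Among splicing factors, QKI, which is high in mesenchymal cells, was lower in clone 4 than in clone 3 (-0.98, DESeq2 adjusted p 2.06e-07), and RBFOX2 was higher (0.48, DESeq2 adjusted p 0.0366), the latter not in edgeR (0.122) nor without the untreated or the treated clone 3 library (0.431 and 0.344). In treated against untreated EIR cells, 0 genes of these 8 lists were called by DESeq2 or by edgeR, and COL5A1, a collagen chain that held 234 counts in parental cells, 238 and 522 in untreated and treated clone 3, and 165 and 413 in untreated and treated clone 4, was the 1 gene with an unadjusted p under 0.05.

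Because EPCAM and CDH1 were, of the 7 genes with a test, those that differed most between clones, the coding genes around them with a mean of 100 or more normalized counts were read, a choice made after their values were seen. Within 1 Mb of EPCAM lay 13 such genes, with log2 ratios of clone 4 to clone 3 from -1.02 to 0.43 and a median of -0.09, against -9.74 for EPCAM. Around CDH1 lay 33, with log2 ratios of clone 4 to clone 3 from -0.47 to 1.08 and a median of -0.00083, against -5.33 for CDH1. The values of neighbors are ratios of mean normalized counts plus 0.5, whereas those of EPCAM and CDH1 are DESeq2 log2 differences. As mean normalized counts, EPCAM had 0.529 in clone 4 and 443 in clone 3, and CDH1 had 3.13 and 123. The differences of EPCAM and CDH1 between clones were larger than that of any such neighbor within 1 Mb. Near EPCAM, 1 of the 13 neighbors was called between clones, EPAS1 (log2 ratio -1.02, DESeq2 adjusted p 5.45e-06). Near CDH1, 2 of the 33 were called, NQO1 (1.08, DESeq2 adjusted p 1.98e-10) and CYB5B (-0.47, DESeq2 adjusted p 0.0319). Of all genes tested, 9.83% were called between clones.

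**Figure D4:**
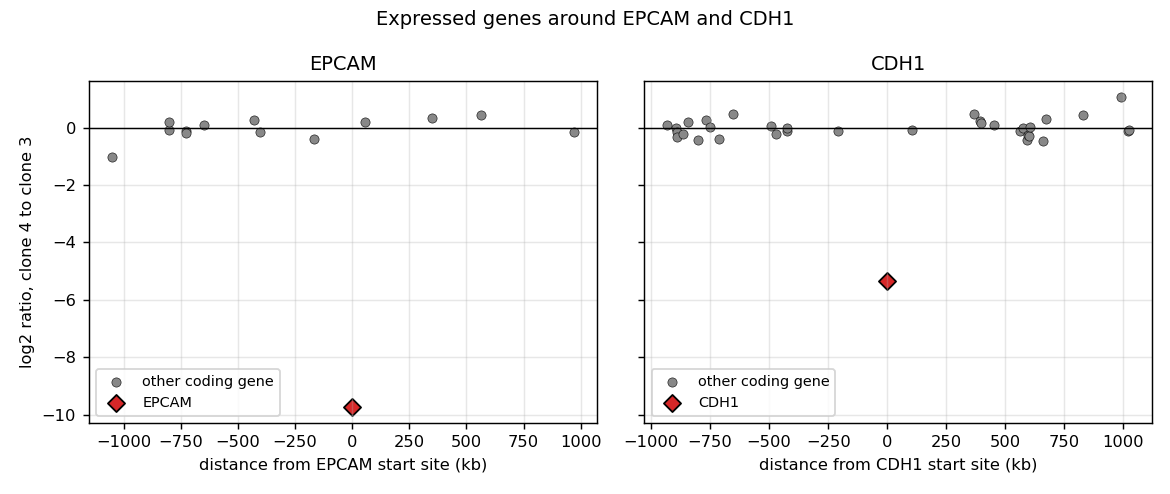
Log2 ratio of clone 4 to clone 3 of expressed coding genes within 1 Mb of EPCAM (left) or CDH1 (right), against the distance between start sites in kb, 1 point per gene. The neighbors lie between -1.02 and 1.08, while EPCAM (diamond) is at -9.74 and CDH1 at -5.33. Neighbors are ratios of mean normalized counts, and the diamonds are DESeq2 log2 differences.

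The closest profiles over the 5 libraries were sought for each called member averaging 100 or more normalized counts, which leaves out CDH1 (mean 51.7). Closeness was the root mean square difference of centred log2 values among 11564 genes. The closest genes were TFCP2 and EMSLR for EPCAM, ANO5 and ZNF556 for CDH2, HECA and CCDC74A for VIM, KLHL8 and ZNF256 for ZEB1, and ENSG00000273038 and TRABD2B for ZEB2. TFCP2 had 773 normalized counts in parental cells, 437 and 415 in clone 3, and 0 and 2.12 in clone 4, at a root mean square difference of 0.45 from EPCAM. ANO5 had 5.04 normalized counts in parental cells, 490 and 626 in clone 3, and 405 and 416 in clone 4, at 0.13 from CDH2. HECA, at 0.02 from VIM, had 819 normalized counts in the parental library against 340 to 408 in the others.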

How the data were processed

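RNA-seq libraries of parental TOV21G cells (1), untreated EIR clones (2) and GSK126-treated EIR clones (2) were grouped by their labels. The authors aligned paired-end reads to hg19 with bowtie2 and estimated counts per gene with RSEM on Ensembl gene models of unstated release. RSEM is given as 1.2.3 in the submitters' processing notes. The values the authors deposited are expected counts (estimated counts, not normalized), all whole numbers, so no rounding was needed. RSEM divides ambiguous reads by estimation, which makes counts of overlapping genes uncertain.

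Symbols and coordinates came from GENCODE release 44 on GRCh37, which matched 95.8% of the identifiers. Genes were tested over the whole table by a two-sided Wald test in DESeq2 1.42.0 (R 4.3.3). Size factors were medians of ratios, p-values were adjusted by Benjamini-Hochberg, and calls were made at an adjusted p under 0.05. Tool and false discovery rate (5%) are those of the study. Normalized counts are counts divided by these size factors. Each clone was tested in a fit of 3 groups (parental, clone 3, clone 4) in which the dispersion came from the 2 libraries of each clone, clone 4 against clone 3 in the 4 EIR libraries with treatment as covariate, and treatment in the same libraries without a block. The 2 libraries of each clone differed in treatment, so the spread behind p-values of tests against parental cells includes any effect of treatment. With all EIR libraries pooled, and in the treatment test without a block, the spread includes the difference between clones. No clone had 2 libraries of the same treatment, so the spread between replicate cultures was not measured. The clone number pairs treated and untreated libraries, as the same clone is the same derived line, and deviations from the group means of same-numbered libraries correlated at 0.86 over 11564 genes. Ratios of low counts carry exact 95% intervals, which cover counting error only.

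The genes and lists were chosen with earlier results of these data known. Named list genes were the 3 with the largest change per list and comparison, among called genes averaging 100 or more normalized counts. ESRP2, MIR200CHG, MIR205HG, CTNND1 and COL5A1, and genes named only beside the count of their list, fall outside this rule and were chosen after their values were seen. The 2 genes most like each called member with that mean were named by log2(normalized count + 0.5). Alternatives were edgeR 4.0.16 (quasi-likelihood test), TMM and total count scaling, a filter of at least 10 counts in 2 libraries, a GC correction, leaving out each EIR library, other covariates or sample sets, and the replicate block. Scripts were tested on simulated data. Some single genes that the naming rule selects are not reported here.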

Additional observations from a re-analysis of the deposited data

Results flagged for a closer look

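Of the 10 genes, 4 differed between the EIR clones by a test of the difference itself (DESeq2, Benjamini-Hochberg adjustment, 4 EIR libraries). The log2 difference of clone 4 from clone 3 was -9.74 for EPCAM, -5.33 for CDH1, -0.69 for CDH2 and 1.58 for ZEB2. For EPCAM and CDH1 the call held under all 10 alternatives, with log2 differences of -11.2 to -8.72 and -5.93 to -4.87. For ZEB2 it held under 9 of 10 and for CDH2 under 8 of 10. Each clone is 1 picked line, and differences between clones cannot be told apart from differences that arose in picking or culture. Among the 4 EIR libraries no library stood apart for any of the 10 genes by a test of the gap to its nearest neighbor. Where the clones differ, that neighbor is the other library of the same clone. The test could then hardly mark a library, and no conclusion is drawn from it.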

How the results depend on the processing

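The number of genes called over the whole table moved with the processing. For EIR against parental it was 4157, against 1746 in edgeR (650 higher, 1096 lower), 1914 with the libraries of each clone summed, 1998 with treatment as covariate, and 2837 to 4024 when each EIR library was left out in turn. For clone 3 against parental it was 4925, and 1983 to 2309 without 1 of its libraries. For clone 4 against parental it was 5368, against 3542 with the parental and clone 4 libraries alone and 4480 to 4625 without 1 library. For clone 4 against clone 3 it was 1739, and 831 to 2800 without 1 library (831 without the treated and 876 without the untreated clone 3 library, 2800 without the untreated clone 4 library), where the fit had no treatment covariate and, in the clone left with 1 library, that library is assumed to vary like the others. For GSK126-treated against untreated EIR it was 1, against 0 in edgeR and 1 to 25 without 1 library, the 25 without the untreated clone 3 library. The clone number as replicate block, which pairs the libraries, gave 4 genes, together with the GC correction 7, and in edgeR (added after the data were seen) 1. None of the 10 genes was called under the block, and it changed no other call of theirs.

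Over the 10 genes and their alternatives, 352 values kept their direction and side of the threshold, 8 fell below it, 1 rose above it (TWIST1 in clone 3, edgeR) and 15, never past the threshold, changed sign. The causes were not tested. None of the 10 that was called changed direction. Of the list genes named by rule, 576 values held and 70 fell below the threshold. No scaling moved the median expressed gene by over 0.1 on the log2 scale, the most being 0.098 with the GC correction in clone 4. With 1 parental library no spread between parental cultures could be measured, and CDH1, ESRP1, SNAI1 and SNAI2 are limited by counts of under 10 in parental cells.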
